A study of Homo sapiens with 15 samples.

Results

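IMR90 fibroblasts, which come from human fetal lung, were made to express oncogenic RAS from a retrovirus, depleted of METTL14 by siRNA and then given wild-type METTL14 back from a lentivirus. The 3 libraries of these add-back cells were compared with the 3 libraries of RAS cells that had the METTL14 siRNA and a vector (vector cells below), 6 of the 15 libraries of the study. Beside them stand 3 other groups of 3 libraries: RAS cells with METTL14 siRNA and METTL14 carrying the R298P substitution (R298P cells), RAS cells with a non-targeting siRNA (siControl RAS cells), and control cells with an empty retrovirus and the non-targeting siRNA. Transfection with siRNA began on day 4 after retroviral infection, a further transfection and the lentivirus followed on the next day, and cells were harvested 48 hours later. The groups were chosen by their labels, though with earlier results of these data known. The comparison addresses which genes respond when METTL14 is supplied again to RAS cells that lack most of it. The model has limits that the labels set: it is 1 cell line, the lentiviral METTL14 is not under its own gene's control, and the content of the lentivirus in vector cells and any lentivirus in siControl RAS cells are not described. Separate cultures behind replicate libraries are not mentioned in the labels, so the p-values reflect differences among libraries, which may be technical.

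METTL14 pairs with METTL3 in the nuclear methyltransferase that places N6-methyladenosine (m6A) in RNA; METTL3 carries the catalytic site and METTL14 helps hold the RNA, and R298P is a cancer-associated substitution that impairs the complex. Oncogenic RAS makes fibroblasts senescent: they cease to divide for good and release cytokines, growth factors, proteases and matrix proteins, the senescence-associated secretory phenotype (SASP). Interferon-stimulated genes are switched on by transcription factors that bind the interferon-stimulated response element (ISRE) in promoters, and their products sense or block viral RNA.

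The promoters of 4 interferon-stimulated genes that were lower with wild-type METTL14 are shown as examples in which the ISRE core is repeated. The largest falls among called genes lay in this group, but these 4 are not the 4 largest. The promoter of IL11, a cytokine gene that was higher, is shown beside these. Each runs 5′ to 3′ on the gene's strand from 250 bases before to 50 bases after the start of the gene in RefSeq (GRCh38.p14). The windows are chr1:78620198-78620497 (plus strand) for IFI44L, chr10:89392373-89392672 (plus) for IFIT1, chr14:94110486-94110785 (plus) for IFI27, chr1:27672143-27672442 (minus) for IFI6 and chr19:55370414-55370713 (minus) for IL11. Capitals mark the ISRE core, TTTCNNTTTC or its reverse GAAANNGAAA, in the first 4 and the AP-1 motif TGANTCA in IL11.
IFI44L: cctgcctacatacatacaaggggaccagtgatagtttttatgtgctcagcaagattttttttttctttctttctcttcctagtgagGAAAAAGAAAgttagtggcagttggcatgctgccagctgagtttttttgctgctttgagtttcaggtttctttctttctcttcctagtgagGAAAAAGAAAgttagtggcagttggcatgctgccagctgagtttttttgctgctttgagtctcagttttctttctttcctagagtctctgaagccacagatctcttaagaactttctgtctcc
IFIT1: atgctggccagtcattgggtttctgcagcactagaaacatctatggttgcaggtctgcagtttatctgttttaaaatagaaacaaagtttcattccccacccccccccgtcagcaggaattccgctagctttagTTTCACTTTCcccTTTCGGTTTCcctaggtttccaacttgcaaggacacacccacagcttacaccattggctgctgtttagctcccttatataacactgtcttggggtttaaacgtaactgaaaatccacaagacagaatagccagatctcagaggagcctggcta
IFI27: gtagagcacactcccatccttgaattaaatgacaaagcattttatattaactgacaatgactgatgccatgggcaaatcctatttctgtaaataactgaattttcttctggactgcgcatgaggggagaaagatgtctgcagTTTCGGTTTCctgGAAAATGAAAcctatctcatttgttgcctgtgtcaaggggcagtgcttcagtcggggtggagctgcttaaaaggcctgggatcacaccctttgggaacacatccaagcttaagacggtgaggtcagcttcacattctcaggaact
IFI6: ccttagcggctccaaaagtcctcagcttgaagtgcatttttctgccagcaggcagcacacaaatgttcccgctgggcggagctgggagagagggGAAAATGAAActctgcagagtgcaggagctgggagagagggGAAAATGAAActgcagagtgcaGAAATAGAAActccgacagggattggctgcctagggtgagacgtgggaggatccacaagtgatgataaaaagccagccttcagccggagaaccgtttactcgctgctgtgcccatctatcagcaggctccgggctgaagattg
IL11: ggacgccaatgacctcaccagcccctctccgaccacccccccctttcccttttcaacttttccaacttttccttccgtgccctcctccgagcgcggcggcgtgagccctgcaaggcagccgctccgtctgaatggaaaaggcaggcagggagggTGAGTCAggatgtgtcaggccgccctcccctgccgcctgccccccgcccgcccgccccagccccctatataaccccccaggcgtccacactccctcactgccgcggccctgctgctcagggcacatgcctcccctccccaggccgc

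Both strands were searched, and a promoter was found for 64 of the 84 genes called in the comparison described below. The ISRE core was in 16 of 31 promoters of genes called lower (51.6%) and in 1 of 33 promoters of genes called higher (3.03%), against 3.65% of all 27305 promoters in the table and 2.77% of the 10049 promoters of genes tested. In IFI6 it occurred 3 times, in IFI44L, IFIT1 and IFI27 2 times each. MX1 (log2 difference of add-back against vector cells -2.98) had it 1 time. It was absent from the windows of XAF1 (-2.01), HERC6 (-1.80), PARP9 (-1.35) and RIGI (-0.60), which were also called lower. Of these, XAF1 and HERC6 fell more than IFI6 (-1.48). In IFI44L the matches lie in a stretch of promoter that is repeated. The AP-1 motif was in 1 of 33 promoters of genes called higher and 1 of 31 of those called lower, against 4.42% of promoters of genes tested. A match describes the letters in the window and no binding was measured.

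METTL14 (ENSG00000145388) was measured first, as a check of the labels. It had 508, 564 and 564 normalised CPM (counts scaled to library size) in wild-type add-back libraries, against 9.35, 4.94 and 3.94 CPM in vector libraries. The groups lay far apart, with a log2 difference of 6.53 (SE 0.18, adjusted p = 1.14e-12). The mean was 945 ± 80.4 CPM in R298P cells, 22 ± 3.66 CPM in siControl RAS cells and 21.2 ± 2.11 CPM in control cells (SD, n = 3 each). The METTL14 CPM of add-back cells was therefore 24.6-fold that of siControl RAS cells. The 3′ end of the lentiviral transcript is not known and only 3′ ends were read, so this fold may not be that of whole transcripts. Tags from the lentiviral and the endogenous gene were not separated. METTL3, the catalytic partner, averaged 12.3 ± 3.30 CPM in add-back cells and 14 ± 2.75 CPM in vector cells (log2 difference -0.18, adjusted p = 0.973). HRAS, whose gene symbol is that of a RAS oncogene used in such models, averaged 46.2 ± 6.46 CPM in add-back cells and 50.1 ± 6.52 CPM in vector cells (log2 difference -0.12, adjusted p = 0.948). Its mean was 52 CPM in R298P cells, 40.2 CPM in siControl RAS cells and 57.8 CPM in control cells, so no RAS group had a higher mean than control cells. Only 3′ ends were read, and whether tags of the retroviral RAS were counted under HRAS is not known. These means therefore do not test whether RAS was expressed. Total counts per library were 5023359 to 6736809 in add-back cells and 4917661 to 6441349 in vector cells, so 1 count stood for 0.148 to 0.203 CPM.

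**Figure D1:**
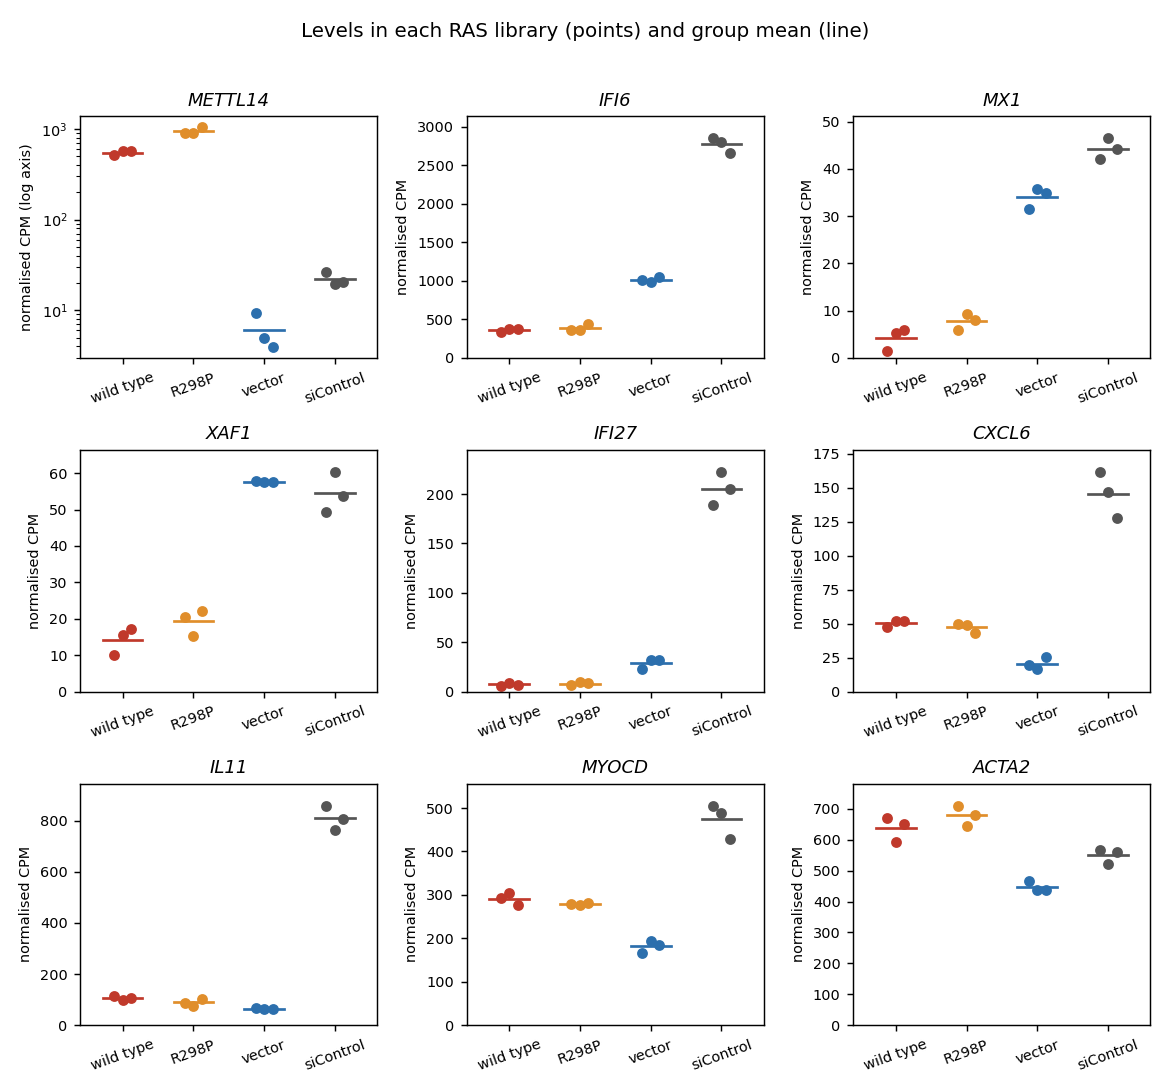
Normalised CPM of 9 genes in each RAS library (points; the line is the mean of 3 libraries) for wild-type add-back, R298P, vector and siControl RAS cells; the METTL14 axis is logarithmic and the others start at 0. In the MX1, XAF1, IFI27 and IFI6 panels all wild-type points lie below all vector points, and in the METTL14, CXCL6, IL11, MYOCD and ACTA2 panels all lie above them.

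Few genes were called different between wild-type add-back and vector cells. Many of those called lower were interferon-stimulated genes, and those called higher included some cytokine, matrix and contractile genes, mostly with smaller differences. A call needed an adjusted p (Benjamini-Hochberg, from the quasi-likelihood test of edgeR, two-sided) below 0.05. The table lists 57736 genes, of which 13516 had enough counts to be tested. Of these, 44 were called higher (0.326%) and 40 lower (0.296%) in add-back than in vector cells. The change was at least 2-fold in 6 of the higher and 13 of the lower genes. In all 84 the 3 add-back libraries lay entirely on 1 side of the 3 vector libraries, as they did for 888 (6.57%) of all tested genes on the higher side and 875 (6.47%) on the lower. The median log2 difference of all tested genes was 0.00037. An unadjusted p under 0.05 in the same test was found for 1021 genes, and a gene that was not called may still differ. Of the 84 called genes 40 belong to at least 1 of the gene lists described below. The lists hold 573 symbols and were chosen with earlier results of these data known, so this count is a description only. Without replicate 2 of the add-back group 55 genes were called in all, and DESeq2 called 126. For 14 called genes an overlapping gene, mostly on the other strand, holds at least 10% as many counts, so that without a stated strand setting their counts are uncertain; among those named below are RGS5, COL4A1, COL4A2, DTX3L, PARP9, TRIM14, IFIT1 and IFIT3.

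**Figure D2:**
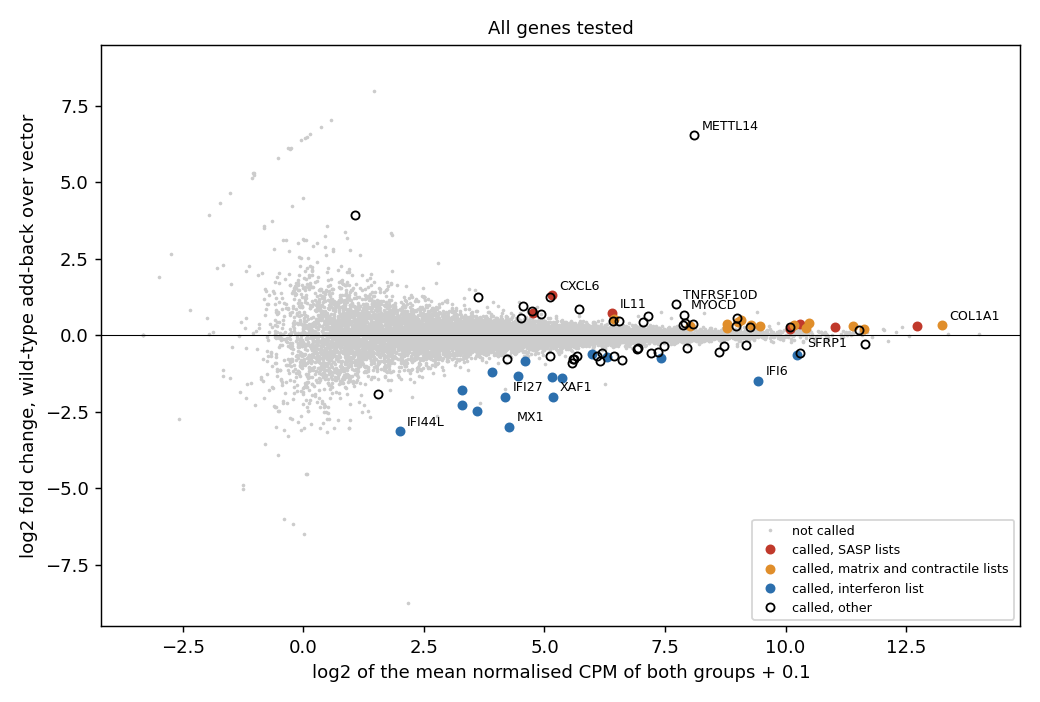
The log2 fold change of wild-type add-back over vector cells for all 13516 genes tested, against the log2 of their mean normalised CPM with 0.1 added; coloured or open circles are the 84 called genes. METTL14 stands at 6.53, interferon-stimulated genes (blue) make up the lower edge among called genes down to -3.13 for IFI44L, and called SASP, matrix and contractile genes lie between 0.21 and 1.31.

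Interferon-stimulated genes were lower with wild-type METTL14 throughout the list. Of 37 listed genes 36 were tested, none was called higher and 17 were called lower, and all 36 differences were negative. The median log2 difference was -1.35, with a range of -3.13 to -0.15, where all genes tested had a median of 0.00037. In 29 of the 36 every add-back library was below every vector library, as in 6.47% of all genes tested. IFI44L had 0.202, 1.80 and 0.188 CPM in add-back libraries, against 5.49, 7.25 and 8.54 CPM in vector libraries (log2 difference -3.13, SE 0.55, adjusted p = 0.00101). MX1, which traps viral ribonucleoproteins, had 1.41, 5.24 and 6.01 CPM in add-back libraries, against 31.5, 35.8 and 34.8 CPM in vector libraries (-2.98, SE 0.32, adjusted p = 6.98e-07). In both genes the groups were wide apart, and replicate 2 of the add-back group held most of the few IFI44L tags, without which the log2 difference of IFI44L was -5.05. IFIT1, which binds RNA that lacks the host's cap methylation, had 1.21, 5.69 and 3.95 CPM in add-back libraries, against 20.1, 25.9 and 15.6 CPM in vector libraries (-2.46, adjusted p = 0.000789). IFI27 had 6.06, 8.53 and 6.95 CPM in add-back libraries, against 23.2, 31.8 and 32.3 CPM in vector libraries (-2.01, adjusted p = 2e-08). The promoters of IFI44L, IFIT1 and IFI27 carry the paired ISRE cores printed above. XAF1, a pro-apoptotic partner of XIAP, had 9.90, 15.6 and 17.3 CPM in add-back libraries, against 57.7, 57.6 and 57.5 CPM in vector libraries (-2.01, adjusted p = 1.22e-08). IFI6, an endoplasmic reticulum protein that hinders flavivirus replication, had 343, 378 and 375 CPM in add-back libraries, against 1014, 991 and 1048 CPM in vector libraries (-1.48, SE 0.07, adjusted p = 2.11e-17), the smallest adjusted p of the comparison.

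Among the oligoadenylate synthetases, which activate RNase L, OAS2 averaged 3.27 ± 1.24 CPM in add-back cells and 16.1 ± 6.42 CPM in vector cells (log2 difference -2.28), and OAS3 averaged 22.7 ± 4.72 CPM in add-back cells and 59.9 ± 6.90 CPM in vector cells (-1.40). OAS1 averaged 1.81 CPM in add-back cells and 7.52 CPM in vector cells and was not called (-2.02, adjusted p = 0.225). The call of OAS3 ended without replicate 2 or 3 of the add-back group or replicate 1 of the vector group (adjusted p = 0.112, 0.107 and 0.0774). HERC6 (-1.80), PARP9 (-1.35), IFIT3 (-1.32) and EPSTI1 (-1.18) were also called lower; HERC6 was not called without replicate 1 of the add-back group (adjusted p = 0.0775), nor EPSTI1 without replicate 1 or 2 of that group or replicate 2 of the vector group (adjusted p = 0.0665, 0.0682 and 0.0631). The transcription factor genes IRF9 (-0.56, adjusted p = 0.377) and STAT2 (-0.25, adjusted p = 0.717) were not called. IFITM3, a membrane protein that blocks viral entry, averaged 944 ± 72.5 CPM in add-back cells and 1480 ± 151 CPM in vector cells (-0.65, adjusted p = 9.66e-07); it and IFITM2 (-0.55) are near copies, so reads may be shared. ISG15, the ubiquitin-like modifier, averaged 38.3 CPM in add-back cells and 114 CPM in vector cells and missed the threshold (-1.57, adjusted p = 0.154). Outside the list, TRIM14 (-0.91), DTX3L (-0.83), PARP14 (-0.81), HELZ2 (-0.76) and SP100 (-0.56), which are known interferon-inducible genes, were called lower.

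For every called member of the interferon list except RIGI, the add-back level lay farther from siControl RAS cells than the vector level did. On the log2 scale add-back and vector cells stood at -1.96 and 0.50 against siControl RAS cells for IFIT1, and at -0.93 and 0.42 for PARP9. RIGI lay nearer with the add-back (-0.20 and 0.40). Outside the list TRIM14 (-0.40 and 0.51), DTX3L (-0.30 and 0.53) and SP100 (-0.13 and 0.43) also lay nearer. PARP14 (-0.68 and 0.13) and HELZ2 (-1.11 and -0.35) lay farther. IFI6 averaged 365 ± 19.3 CPM in add-back cells, 390 ± 43.7 CPM in R298P cells, 1018 ± 28.9 CPM in vector cells, 2775 ± 97.7 CPM in siControl RAS cells and 87.0 CPM in control cells. It was lower in vector than in siControl RAS cells (log2 difference -1.45, adjusted p = 2.78e-18) and lower still in add-back cells against siControl RAS cells (-2.92, adjusted p = 2.4e-26). IFI27 averaged 7.18 ± 1.25 CPM in add-back cells, 29.1 ± 5.15 CPM in vector cells and 205 ± 16.8 CPM in siControl RAS cells. XAF1 averaged 14.3 ± 3.86 CPM in add-back cells, 19.3 ± 3.64 CPM in R298P cells, 57.6 ± 0.129 CPM in vector cells and 54.5 ± 5.47 CPM in siControl RAS cells. The log2 difference of vector against siControl RAS cells was 0.08 for XAF1 (adjusted p = 0.835). MX1 likewise was not called between vector and siControl RAS cells (-0.38, adjusted p = 0.396). In wild-type add-back against siControl RAS cells 25 of the 36 listed genes were called lower and none higher, where 13.0% of all genes tested were called in either direction. The comparisons share libraries, so their values stand side by side and are not independent.

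Of 24 tested SASP cytokines and chemokines 3 were called higher and none lower. The median log2 difference was 0.30, with 18 positive and 6 negative differences between -2.35 and 2.25. The groups did not overlap in 11 genes on the higher and 3 on the lower side, against 6.57% and 6.47% of all genes tested. CXCL6, a neutrophil chemokine, had 47.5, 51.9 and 52.2 CPM in add-back libraries, against 19.5, 16.2 and 25.6 CPM in vector libraries (log2 difference 1.31, SE 0.17, adjusted p = 6.9e-06). IL11, a cytokine of the IL-6 family that acts on fibroblasts, had 114, 96.8 and 107 CPM in add-back libraries, against 65.0, 62.4 and 64.0 CPM in vector libraries (0.73, SE 0.09, adjusted p = 2.95e-06). CSF3, the granulocyte colony-stimulating factor, had 26.9, 36.1 and 38.1 CPM in add-back libraries, against 21.7, 19.0 and 19.9 CPM in vector libraries (0.75, SE 0.16, adjusted p = 0.00975). No add-back library of these genes fell within the vector range, though CSF3 was not called when replicate 2 or 3 of either group was left out (adjusted p = 0.0581 to 0.103). Nor was CSF3 called in limma-voom (adjusted p = 0.0517) or in edgeR with the 6 libraries alone (adjusted p = 0.116). Each was far below siControl RAS cells, where CXCL6 averaged 145 CPM, IL11 811 CPM and CSF3 160 CPM. The log2 difference of wild-type add-back against siControl RAS cells was -1.52 for CXCL6, -2.94 for IL11 and -2.24 for CSF3.

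Other well known SASP genes did not pass the threshold in edgeR. CXCL1 had 893, 850 and 828 CPM in add-back libraries, against 409, 530 and 569 CPM in vector libraries (log2 difference 0.77, SE 0.16, adjusted p = 0.0721). CXCL8, interleukin 8, had 418, 367 and 396 CPM in add-back libraries, against 184, 242 and 282 CPM in vector libraries (0.73, SE 0.16, adjusted p = 0.114). IL1B had 217, 225 and 261 CPM in add-back libraries, against 146, 140 and 186 CPM in vector libraries (0.57, SE 0.14, adjusted p = 0.141). In all of these the groups did not overlap, and DESeq2 and limma-voom called all of them; DESeq2 called 7 list members in all. IL1A averaged 47.2 ± 5.27 CPM in add-back cells and 35.3 ± 5.12 CPM in vector cells (0.42, adjusted p = 0.417). IL6 averaged 9.73 ± 1.09 CPM in add-back cells and 9.78 ± 3.94 CPM in vector cells, and CCL2 averaged 122 ± 21.8 CPM in add-back cells and 123 ± 42.3 CPM in vector cells. For these 2 genes the log2 difference was -0.02, with a sign that turned under some alternatives. In wild-type add-back against siControl RAS cells 16 of the 24 listed genes were called lower and 1 higher. Of all genes tested 13.0% were called in that comparison, in either direction.

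Growth factors and proteases of the SASP gave few calls. Of 25 growth factors and binding proteins 3 were called higher and none lower, with a median log2 difference of 0.05. INHBA, the activin A subunit, averaged 1434 ± 26.8 CPM in add-back cells and 1097 ± 95.7 CPM in vector cells (0.39, adjusted p = 7.11e-05). IGFBP5 averaged 7557 ± 232 CPM in add-back cells and 6092 ± 172 CPM in vector cells (0.31, adjusted p = 8.2e-05), and IGFBP4 had a difference of 0.22 (adjusted p = 0.0438) and lost its call in 8 of 14 alternatives. Of 21 proteases and regulators PAPPA alone was called, a metalloproteinase that cleaves IGFBP4 and IGFBP5. It had 2220, 2384 and 2252 CPM in add-back libraries, against 1883, 1896 and 1906 CPM in vector libraries (0.27, adjusted p = 0.00244), and was not called without replicate 2 of the add-back group (adjusted p = 0.054). DESeq2 called 5 genes of this list. MMP1, the interstitial collagenase, averaged 697 ± 48.6 CPM in add-back cells and 649 ± 13.5 CPM in vector cells (0.10, adjusted p = 0.782). MMP3, stromelysin, had 174, 189 and 283 CPM in add-back libraries, against 126, 112 and 146 CPM in vector libraries (0.75, adjusted p = 0.235 in edgeR and 0.0308 in DESeq2).

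Of 37 matrix genes, all tested, 8 were called higher and none lower, and 29 did not pass. The median log2 difference was 0.15, with 34 positive and 3 negative differences. The groups did not overlap in 17 genes on the higher and 1 on the lower side, against 6.57% and 6.47% of all genes tested. COL1A1, the main chain of type I collagen, had 10979, 10980 and 10374 CPM in add-back libraries, against 8704, 8692 and 8247 CPM in vector libraries (log2 difference 0.33, SE 0.05, adjusted p = 1.8e-05). THBS1, a matrix protein that activates latent TGF-beta, had 1645, 1705 and 1558 CPM in add-back libraries, against 1198, 1321 and 1205 CPM in vector libraries (0.40, adjusted p = 0.000148). FBN2, a microfibril protein, had 93.8, 115 and 101 CPM in add-back libraries, against 74.0, 78.7 and 61.9 CPM in vector libraries (0.53, adjusted p = 0.0234). For these 3 genes the groups were apart, but the FBN2 call ended without replicate 2 or 3 of the add-back group or replicate 3 of the vector group (adjusted p = 0.236, 0.0685 and 0.248). It also ended with the 6 libraries alone. The other called members were COL8A1 (0.38), COL4A1 (0.34), COL4A2 (0.32), FN1 (0.29) and VCAN (0.25); VCAN was called in 6 of 14 alternatives and in none with 1 library left out. The list's count was 5 without replicate 2 of the add-back group and 5 without replicate 3 of the vector group. GREM1, a secreted antagonist of bone morphogenetic proteins (0.63, adjusted p = 1.18e-06), and ITGA1, the collagen-binding integrin chain (0.58, adjusted p = 3.39e-07), lie outside the list and were called higher. ITGA1 averaged 609 ± 21.8 CPM in add-back cells, 407 ± 20.6 CPM in vector cells and 640 ± 20.8 CPM in siControl RAS cells, and add-back against siControl RAS cells gave -0.07 (adjusted p = 0.556).

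Of 25 tested contractile genes and targets of the transcription factors SRF and YAP, 6 were called higher and none lower. The median log2 difference was 0.15, with 21 positive and 4 negative differences. The groups did not overlap in 11 genes on the higher and 2 on the lower side, against 6.57% and 6.47% of all genes tested. ACTA2, smooth muscle actin and the usual mark of myofibroblasts, had 670, 593 and 651 CPM in add-back libraries, against 467, 437 and 436 CPM in vector libraries (0.51, SE 0.07, adjusted p = 3.99e-06). CCN2, connective tissue growth factor, had 618, 606 and 555 CPM in add-back libraries, against 381, 502 and 428 CPM in vector libraries (0.44, SE 0.10, adjusted p = 0.0307). TAGLN (0.32), ACTG2 (0.31), TPM1 (0.26) and CALD1 (0.21) had smaller differences. Of 14 alternatives TAGLN was called in 12, TPM1 in 9, CALD1 in 7 and ACTG2 in 6. ACTG2 was called in none with 1 library left out. MYOCD, the coactivator of SRF in smooth muscle, is not in the list and had 292, 305 and 276 CPM in add-back libraries, against 166, 195 and 185 CPM in vector libraries (0.68, SE 0.08, adjusted p = 9.32e-07). Its siControl RAS level was 474 ± 40.4 CPM, above both groups, while ACTA2 averaged 550 ± 25.2 CPM in siControl RAS cells, below add-back cells (log2 difference of add-back against siControl RAS 0.21, adjusted p = 0.0242). The list's count depended on single libraries: it was 2 without replicate 2 or 3 of the add-back group and 2 without replicate 1 or 3 of the vector group, and CCN2 lost its call without replicate 1 or 2 of the add-back or replicate 1 or 3 of the vector group (adjusted p = 0.117 to 0.173). ACTA2 and MYOCD were called under all 14 alternatives tried.

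Several of the genes with the largest rises belong to none of these lists. TNFRSF10D, a decoy receptor for the death ligand TRAIL, had 307, 277 and 270 CPM in add-back libraries, against 138, 148 and 134 CPM in vector libraries (log2 difference 1.02, SE 0.08, adjusted p = 1.96e-11). In siControl RAS cells it averaged 146 ± 3.18 CPM, so the add-back level stood above that group as well (0.96, adjusted p = 7.25e-12), and vector and siControl RAS cells differed by -0.06 (adjusted p = 0.677). R298P cells were also above vector cells, with 257 ± 9.47 CPM of TNFRSF10D (0.88, adjusted p = 1.02e-09). CST1 and CST4, secreted inhibitors of cysteine proteases, are near copies of each other, so reads may be shared between them. CST1 had 47.3, 45.3 and 52.0 CPM in add-back libraries, against 20.7, 19.0 and 21.5 CPM in vector libraries (1.24, adjusted p = 6.9e-06). CST4 averaged 17.2 ± 1.42 CPM in add-back cells and 7.12 ± 0.948 CPM in vector cells (1.27, adjusted p = 0.0352), and lost its call whichever of the 6 libraries was left out (adjusted p = 0.0702 to 0.166). Its call was also lost in limma-voom (adjusted p = 0.0737). GDNF, a neurotrophic factor, averaged 67.2 ± 4.14 CPM in add-back cells and 37.2 ± 7.86 CPM in vector cells (0.85, adjusted p = 0.000114). RGS5, which turns off G-protein signalling, averaged 30.7 ± 3.01 CPM in add-back cells and 15.9 ± 2.79 CPM in vector cells (0.96, adjusted p = 0.000434). Both were much higher in siControl RAS cells, at 195 CPM for GDNF and 213 CPM for RGS5. FOXQ1, a forkhead transcription factor (0.80, adjusted p = 0.0289), and TSC22D3, a glucocorticoid-induced gene (0.71, adjusted p = 0.0153), were called with less margin. FOXQ1 was not called without replicate 2 of the add-back or replicate 1 of the vector group (adjusted p = 0.293 and 0.21). TSC22D3 was not called without replicate 1 or 3 of the add-back or replicate 2 or 3 of the vector group (adjusted p = 0.0656 to 0.111). Both lost their calls with the 6 libraries alone, and FOXQ1 also in limma-voom.

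Among genes called lower outside the interferon list, SFRP1, a secreted inhibitor of Wnt signalling, had 1039, 1022 and 1006 CPM in add-back libraries, against 1635, 1465 and 1429 CPM in vector libraries (log2 difference -0.56, adjusted p = 2.32e-08). SFRP1 was called under all 14 alternatives, and the groups did not overlap. Vector against siControl RAS cells gave a log2 difference of 1.00 for SFRP1 (adjusted p = 8.01e-16), and R298P against vector cells gave -0.72 (adjusted p = 7.16e-11). TRIM14, also among the largest falls, had 30.1, 33.2 and 35.9 CPM in add-back libraries, against 59.3, 65.3 and 62.2 CPM in vector libraries (-0.91, adjusted p = 0.000114). ENSG00000270113, for which no symbol was found, had the largest rise among called genes after METTL14 but rested on 64 counts in all add-back libraries and 4 in all vector libraries (adjusted p = 0.0455), and lost its call in 8 of 14 alternatives.

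Of 40 tested mitosis genes CCNB1, cyclin B1, alone was called, with 16.2, 11.2 and 13.9 CPM in add-back libraries, against 22.6, 22.4 and 24.5 CPM in vector libraries (log2 difference -0.76, adjusted p = 0.0154). The call ended without replicate 2 or 3 of the add-back group or replicate 3 of the vector group (adjusted p = 0.191, 0.0585 and 0.0868). It was also lost in limma-voom and with the 6 libraries alone. The median of the list was -0.23, and 30 of 40 differences were negative. The groups did not overlap in 8 genes on the lower side and in none on the higher, against 6.47% and 6.57% of all genes tested. MKI67, a proliferation marker, averaged 34.1 ± 4.62 CPM in add-back cells and 41.0 ± 3.47 CPM in vector cells (-0.26, adjusted p = 0.748), and CCNA2 averaged 3.73 ± 1.88 CPM in add-back cells and 4.98 ± 1.2 CPM in vector cells (-0.40, adjusted p = 0.907). Of 39 DNA replication and E2F genes and 28 CDK inhibitors and p53 targets none was called. CDKN1A, p21, averaged 1460 ± 63.7 CPM in add-back cells and 1380 ± 76.5 CPM in vector cells (0.08, adjusted p = 0.831). CDKN2A, the p16 gene, averaged 144 ± 10.3 CPM in add-back cells and 164 ± 27.2 CPM in vector cells (-0.19, adjusted p = 0.757), and CDKN2B averaged 36.0 ± 0.571 CPM in add-back cells and 32.9 ± 7.65 CPM in vector cells (0.13, adjusted p = 0.965). LMNB1, the lamin lost in senescence, averaged 9.80 ± 1.77 CPM in add-back cells and 9.42 ± 0.932 CPM in vector cells (0.07, adjusted p = 0.99). These tests do not show that the levels were equal. None was called either among 21 NF-kB and C/EBP genes, 28 MAPK feedback genes, 26 chromatin and nuclear envelope genes, 32 lysosomal genes, 30 unfolded protein response genes, 26 cholesterol synthesis genes, 27 glycolysis and hypoxia genes and 14 polyadenylated histone genes, with list medians between -0.10 and 0.11. DESeq2 called 1 NF-kB, 2 MAPK and 1 glycolysis gene. Among 23 writers, erasers and readers of m6A METTL14 was the only call.

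**Figure D3:**
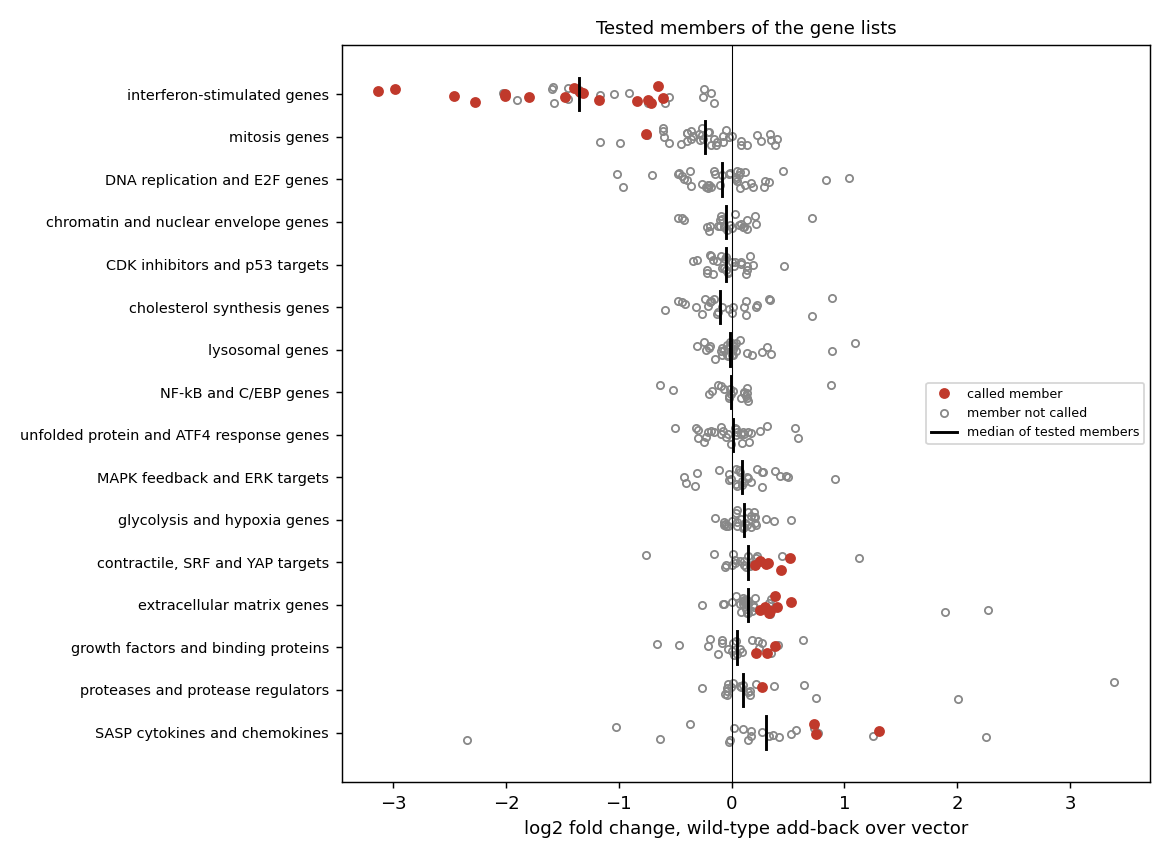
The log2 fold change of wild-type add-back over vector cells for each tested member of 16 gene lists; filled points are called genes and the black bar is the median of the list. Interferon-stimulated genes lie wholly left of 0 with a median of -1.35, while the called members of the SASP, growth factor, protease, matrix and contractile lists lie right of it.

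Against siControl RAS cells, wild-type add-back cells still differed in 854 genes called higher and 901 called lower, 13.0% of genes tested. For reference, vector against siControl RAS cells gave 2100 calls, 15.5% of genes tested; both counts rest on the same siControl RAS libraries. Mitosis genes were higher in add-back than in siControl RAS cells (19 of 40 called higher, none lower), as were contractile genes (14 of 25 higher, none lower). Matrix genes went the other way, with 19 of 37 called lower and 1 higher. COL1A1 averaged 10777 ± 350 CPM in add-back cells and 11896 ± 505 CPM in siControl RAS cells (log2 difference -0.14, adjusted p = 0.0361). FN1, fibronectin, averaged 2970 ± 89.7 CPM in add-back cells and 5372 ± 305 CPM in siControl RAS cells (-0.86, adjusted p = 9.15e-14). MKI67 averaged 34.1 ± 4.62 CPM in add-back cells, 10.3 ± 3.44 CPM in siControl RAS cells and 284 CPM in control cells.

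Few genes were called between wild-type and R298P METTL14. In edgeR 3 genes were called, 0.0222% of those tested, while DESeq2 called 12 and limma-voom 5. An unadjusted p under 0.05 in edgeR was found for 665 genes here and for 1021 between wild-type add-back and vector cells. If no gene differed, a fraction of about 0.05 of the 13516 tested would be expected under that value. WTAP, which holds the m6A writer complex in nuclear speckles, had 263, 271 and 295 CPM in wild-type libraries, against 186, 180 and 201 CPM in R298P libraries (log2 difference 0.55, SE 0.08, adjusted p = 0.000549). In vector cells it averaged 263 ± 1.27 CPM, so wild-type and vector cells were close (0.07, adjusted p = 0.939) and the R298P libraries were the low ones. RCAN1, an inhibitor of calcineurin, averaged 734 ± 19.1 CPM in wild-type cells and 574 ± 20.01 CPM in R298P cells (0.35, adjusted p = 0.0225). METTL14 itself was lower in wild-type than in R298P cells (-0.79, adjusted p = 0.0322). Leaving out 1 library of either group left 1 or 2 calls. R298P against vector cells gave 148 calls, 1.09% of genes tested. Some genes called between wild-type add-back and vector cells were compared between the 2 forms. The 95% interval of the log2 difference was -0.24 to 0.05 for IFI6, -0.65 to 0.35 for IFI27 and -1.60 to -0.08 for MX1. It was -0.25 to 0.45 for CXCL6, 0.06 to 0.46 for IL11, -0.06 to 0.14 for COL1A1 and -0.24 to 0.05 for ACTA2. None of these genes was called between the forms. Of the 36 tested interferon-stimulated genes none was called between the forms either, and their median log2 difference was -0.096. Of the 83 called genes other than METTL14 14 had an interval, not adjusted for the number of genes, that left out 0, among them RGS5 (log2 difference -0.68, upper bound -0.36), HELZ2 (-0.81 to -0.22), COL4A2 (-0.32 to -0.05) and PAPPA (0.11 to 0.34) besides MX1 and IL11. The METTL14 level differed between the forms, so the effect of the substitution and that of the level cannot be told apart.

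**Figure D4:**
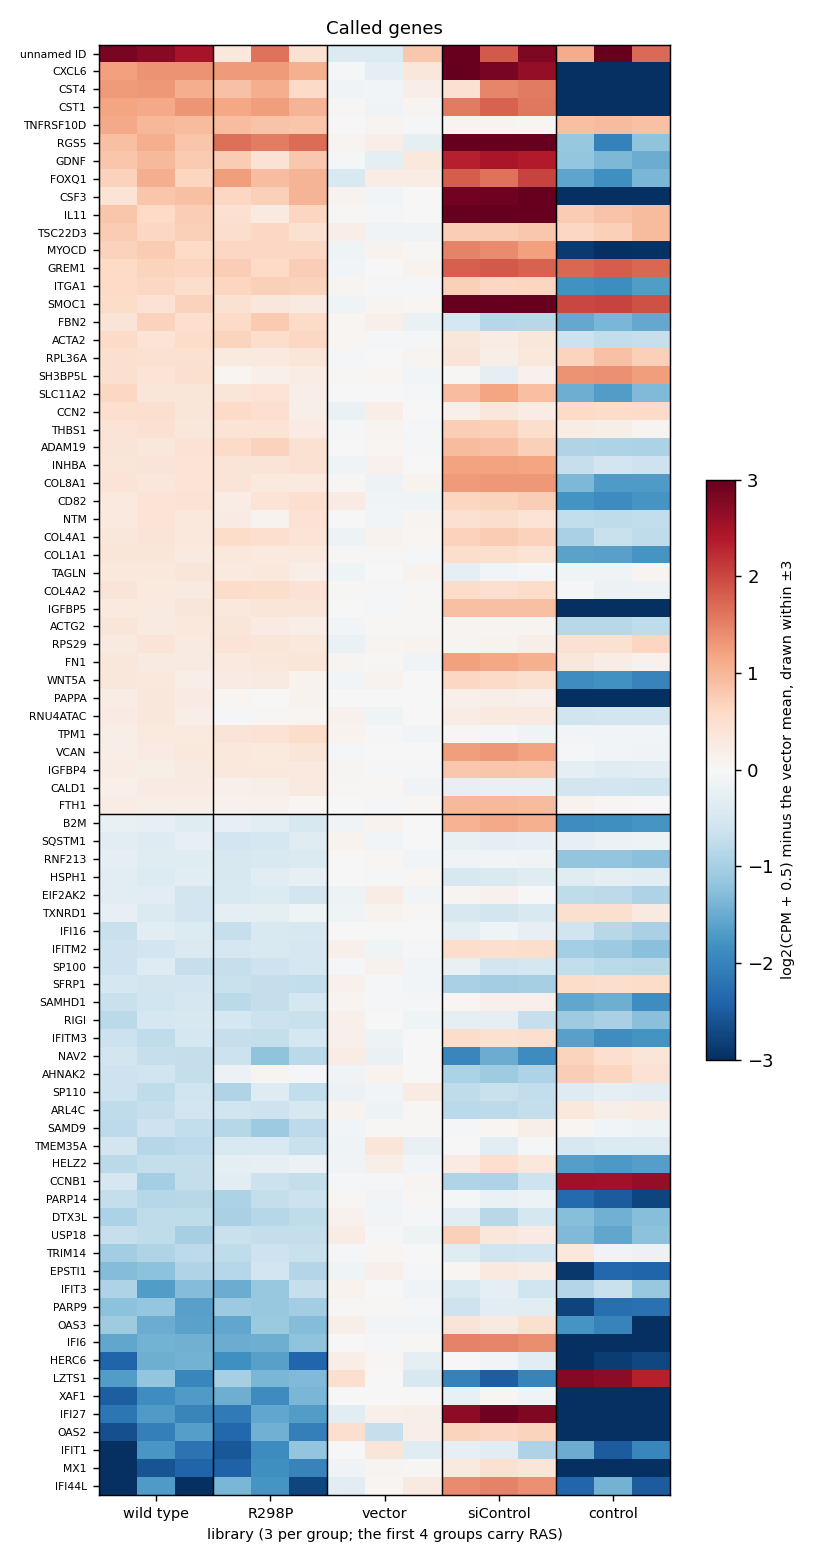
Each row is 1 of 81 of the 84 called genes (METTL14 and 2 others are not drawn) and each column 1 of 15 libraries; colour gives log2(CPM + 0.5) minus the vector mean and is drawn within ±3, with genes called higher above the line and lower below it. Wild-type and R298P columns have like colours in most rows, while siControl RAS columns reach deep red for IL11, RGS5 and SMOC1 as well as for IFI27, which lies among the genes called lower.

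Of 15 fibroblast markers 14 passed the filter on low counts, while TBX4 had at most 3 counts in any of the 6 libraries; their summed level was 21323 to 22767 CPM in add-back libraries and 19048 to 19901 CPM in vector libraries. COL1A1, itself one of the called genes, makes up much of that sum. Epithelial markers summed to 84.3 to 96.2 CPM in add-back libraries and 89.8 to 103 CPM in vector libraries, with CDH1, GRHL2, ESRP1, SFTPC, KRT5 and KRT14 at 0 of 15 listed. KRT18, KRT19 and KRT8 were detected, at up to 47.4, 24.05 and 11.8 CPM in add-back libraries and 48.2, 29.7 and 16.2 CPM in vector libraries. Endothelial markers summed to 37.0 to 44.3 CPM in add-back libraries and 41.8 to 45.7 CPM in vector libraries, with CDH5 and ERG at 0 of 9 in the table. TEK and ROBO4 reached 36.4 and 11.3 CPM in add-back libraries and 36.9 and 8.80 CPM in vector libraries. Leukocyte markers summed to 10.6 to 14.8 CPM in add-back libraries and 6.02 to 14.3 CPM in vector libraries, with 7 of 10 listed at 0, among them PTPRC, TYROBP, LYZ, ITGAM, CSF1R and CD3E. CD68 reached 12.1 CPM in add-back libraries and 13.8 CPM in vector libraries. In a bulk sample, fewer cells that express a gene and less of its RNA per cell cannot be told apart.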

How the data were processed

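Per the labels' protocols, the Lexogen QuantSeq preparation was used, which reads 3′ ends. A genotype label calls the cells knockout and knock-in, but siRNA and lentivirus are what the protocols name, and these are followed here. The authors deposited raw counts for each Ensembl ID. Their processing notes, per the submitters, list hg19, Bowtie2 and RSEM 1.2.12 without saying what each did. Annotation and strand setting: not given in the sources used here. Tags come from transcript ends, so a longer gene does not gain counts. Symbols for 52301 IDs (90.6%; 99.2% of all counts) came from a symbol table and GENCODE 29, used for names and overlaps only. Total counts were 4917661 to 6736809 in the 6 libraries; within groups, replicate pairs differed beyond counting noise (chi-square per degree of freedom 4.60 to 8.47).

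All 15 libraries were fitted with 1 coefficient per group in edgeR 4.0.16 (R 4.3.3; TMM, default filter, robust two-sided quasi-likelihood test, 10 residual degrees of freedom), and p-values were adjusted over 13516 genes. CPM are TMM-normalised, and ± is SD. The script was checked on simulated data. With 3 libraries a side the smallest exact permutation p is 0.1, so no such test was used. Alternatives were DESeq2 1.42.0, voom in limma 3.58.1, other scalings and filters, the 6 libraries compared alone, a replicate block, and each library left out. The replicate numbers did not pair add-back with vector libraries (correlation of deviations -0.04, 0.05 and 0.01).

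The groups, the 22 gene lists (573 symbols, 8 unmatched) and the tests were chosen with earlier results of these data known. The genes named are METTL14, METTL3, HRAS; those 12 higher and 12 lower calls with the largest change, a mean of at least 10 CPM in either group and no overlap; up to 2 called members per list; and, called or not, MKI67, CCNA2, LMNB1, CDKN1A, CDKN2A, CDKN2B, IL1A, IL1B, IL6, CCL2, CXCL1, CXCL8, MMP3 and MMP1. Other genes were named as examples after their values were seen. Promoters are from a RefSeq table (GRCh38.p14). Results for some genes are not reported here.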

Additional observations from a re-analysis of the deposited data

How the results depend on the processing

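The count of genes called for wild-type add-back against vector cells, 84, was 66 to 126 under 8 other settings (DESeq2 126, no filter 111, the 6 libraries alone 66) and 55 to 70 with 1 library left out; 37 of the 84 were called in all 14 alternatives, 16 higher and 21 lower. The replicate block gave 96 calls. Between wild type and R298P, 3 calls became 14 without a filter, 12 with DESeq2, 5 with limma-voom, 5 with the 6 libraries alone and 1 to 2 with 1 library left out. The 8 called matrix genes became 5 to 7, and the 6 called contractile genes 2 to 4, with 1 library left out, and the contractile count was 3 with the 6 libraries alone; the cause was not tested. The interferon list, with 17 calls, had between 13 and 19 under the alternatives. The sign turned for genes near 0: with 1 library left out METTL3 ran from -0.39 to 0.0052, IL6 from -0.30 to 0.19, CCL2 from -0.27 to 0.20 and LMNB1 from -0.058 to 0.20, and limma-voom gave 0.032 for IL6. Depth limits genes of few counts, such as ENSG00000270113.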
